A study of Homo sapiens with 4 samples.

Results

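The genes described here are FGF19, its receptor FGFR4 with the co-receptor KLB, the bile acid synthesis enzymes CYP7A1 and CYP8B1, and the nuclear receptors NR1H4 (the bile acid receptor FXR), NR0B2 (SHP) and NR5A2 (LRH-1). They were chosen by name, and all 8 were found among the 60612 genes listed. The study asked whether the level of CCDC137, an RNA-binding protein, changes the mRNA of other genes in hepatocellular carcinoma (HCC) cells. Polyadenylated RNA was sequenced from 4 libraries, 1 for each group. In Huh-7, cells with an empty vector were set beside cells that overexpressed CCDC137 from a lentiviral vector. PLC/PRF/5 cells carried a control vector or had CCDC137 knocked down by a guide RNA and an inactive Cas9 fused to the KRAB repressor. Both are human HCC lines, and per the study's methods each group was a stable lentiviral line kept after puromycin selection. Huh-7 was grown in DMEM and PLC/PRF/5 in MEM with non-essential amino acids and L-glutamine, so that line, medium and kind of vector cannot be told apart. With 1 library per group, no difference given here has a replicate check and no test between conditions was possible.

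As background, bile acids are made from cholesterol in hepatocytes. CYP7A1 carries out the first and rate-limiting step of the classical route, and CYP8B1 adds the hydroxyl group that turns the product towards cholic acid. Bile acids bind FXR, which induces NR0B2 in the liver and FGF19 in the ileum. NR0B2 has no DNA-binding domain and represses transcription driven by NR5A2 and HNF4A. FGF19 travels to the liver as a hormone, binds the pair of FGFR4 and KLB on hepatocytes and lowers the expression of CYP7A1. The normal adult liver makes little FGF19, whereas some HCC tumors and lines express it.

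CCDC137 followed the labels, at 11.9 FPKM in the Huh-7 empty vector library and 229.0 with overexpression, and at 20.5 in PLC/PRF/5 control and 0.771 in knockdown cells. FPKM is the number of fragments scaled by transcript length and by the mapped fragments of the library, so that levels of genes of unlike length can be set side by side. Between 11727 and 11903 genes reached 1 FPKM in a library. The number of reads behind the values is unknown, and low values rest on few fragments. Both lines expressed hepatocyte genes, although unequally. The 8 hepatocyte markers examined summed to 2530 and 2694 FPKM in Huh-7 and to 1255 and 1116 in PLC/PRF/5 cells. ALB, the defining secreted protein of hepatocytes, was at 1084 and 1142 FPKM in Huh-7 but at 2.15 and 1.94 in PLC/PRF/5 cells. TTR was at 89.3 and 93.0 FPKM in Huh-7 and at 0.298 and 0.260 in PLC/PRF/5 cells. APOA1 was at 238 and 245, and at 4.60 and 4.01, and AHSG was at 125 and 167, and at 2.53 and 1.79. SERPINA1 went the other way, at 296 and 281 FPKM in Huh-7 and at 589 and 484 in PLC/PRF/5 cells. APOB was high in both lines, at 373 and 436, and at 383 and 388 (SERPINA1 and APOB were named after their values were seen). Between the control libraries 1 of 8 markers was higher and 4 were lower past 1.5-fold in PLC/PRF/5 cells (median -2.81), beside 26.3% and 24.1% of all genes. On overexpression 0 of 8 and on knockdown 0 of 7 were past 1.5-fold (medians 0.07 and -0.16).

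The sequence upstream of a RefSeq start site is shown for NR1H4, whose level separated the lines most among the 8 genes, and for KLB, whose level was near the same in all 4 libraries. A gene can have other start sites, and FPKM per gene does not show which of them was used in these cells. Both runs are the 250 bases before a RefSeq start site in GRCh38.p14, on the plus strand, 5′ to 3′. That of NR1H4 lies at chr12:100503110-100503359 and that of KLB at chr4:39406680-39406929.
NR1H4: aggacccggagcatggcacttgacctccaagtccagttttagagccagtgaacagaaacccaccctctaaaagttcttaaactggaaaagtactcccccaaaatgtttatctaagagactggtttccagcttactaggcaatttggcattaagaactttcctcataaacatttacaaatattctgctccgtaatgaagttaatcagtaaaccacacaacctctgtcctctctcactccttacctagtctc
KLB: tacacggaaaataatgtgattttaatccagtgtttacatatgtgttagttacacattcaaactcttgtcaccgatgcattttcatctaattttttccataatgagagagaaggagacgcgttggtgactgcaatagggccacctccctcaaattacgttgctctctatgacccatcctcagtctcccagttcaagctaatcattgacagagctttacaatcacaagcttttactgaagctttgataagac
Their GC content was 42.0% and 39.2%, and 16.4% and 11.4% of the 35116 RefSeq promoters had a lower GC content over the same stretch (median 58.0%). RefSeq promoters matched 4 of the 8 genes (NR1H4, KLB, NR5A2 and FGFR4), with 6 start sites in all. Each was searched on both strands over 250 bases before and 50 bases after the start. The core GTCANTGAC of the inverted repeat bound by FXR was in 0 of the 6 and in 0.347% of all promoters. CAAGGTCA, a monomer site of NR5A2, was in 0 of the 6 and in 1.28% of all promoters, and TGATGCAAT, an ATF4 element, in 0 and 0.236%. TATAAA was in 1 of the 6, an NR5A2 promoter, and in 11.5% of all promoters. GTCANTGAC and CAAGGTCA share the letters GTCA and can overlap. A missing match says only that they are not in these windows.

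FGF19, the ligand, was expressed in the Huh-7 libraries and was at or near 0 in the PLC/PRF/5 libraries. Its level in Huh-7 was 2.51 FPKM with the empty vector and 3.06 with overexpression. It was listed at 0 in PLC/PRF/5 control cells and was at 0.0779 FPKM in knockdown cells. Both Huh-7 values lay above both PLC/PRF/5 values. In bulk RNA, fewer expressing cells and less RNA per cell cannot be told apart. FGF19 (ENSG00000162344) lies on the minus strand of chromosome 11, at chr11:69513006-69518790 of GRCh37. It was a weakly expressed gene in Huh-7, above 24.2% and 30.2% of the genes that reached 1 FPKM in the empty vector and overexpression libraries. On overexpression the difference was 0.21 on the log2(FPKM + 1) scale, a ratio of 1.22, and 83.5% of all genes at 1 FPKM or more had a lower difference.

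**Figure D1:**
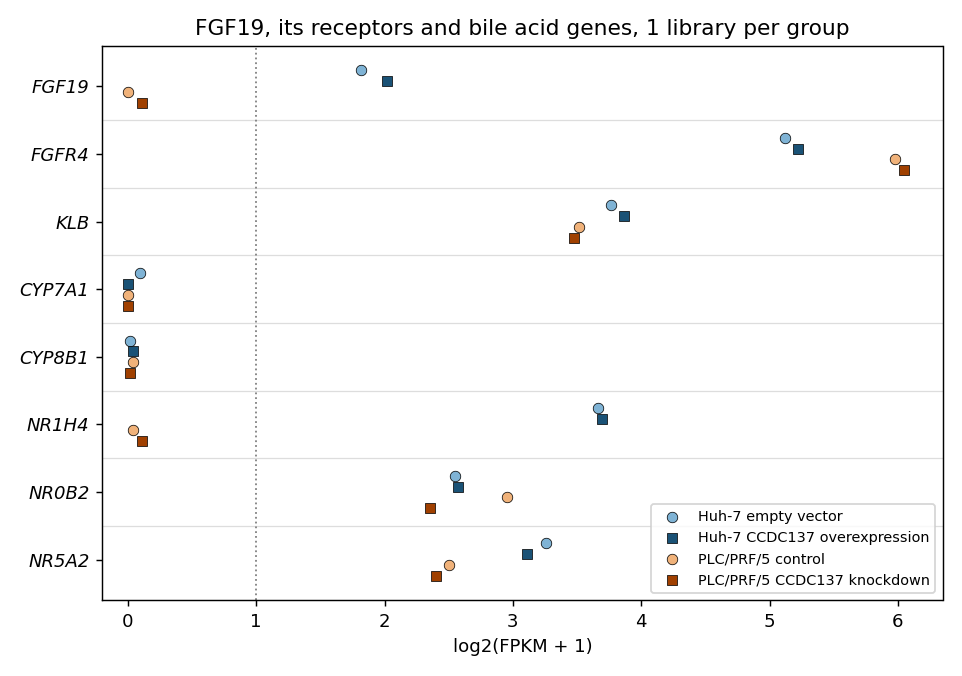
Level of each of the 8 genes as log2(FPKM + 1), with 1 point per library and the dotted line at 1 FPKM. FGF19 and NR1H4 lie above the line in both Huh-7 libraries and below it in both PLC/PRF/5 libraries, while CYP7A1 and CYP8B1 lie near 0 in all 4.

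The receptor pair was expressed in all 4 libraries. FGFR4, the receptor tyrosine kinase for FGF19, was at 33.9 FPKM in Huh-7 empty vector, 36.2 in overexpressing, 62.1 in PLC/PRF/5 control and 65.0 in knockdown cells. It was the most abundant of the 8 genes in every library, above 90.8% to 96.0% of the genes that reached 1 FPKM. KLB, the co-receptor beta-klotho that FGF19 needs to bind with high affinity, was at 12.6, 13.6, 10.4 and 10.1 FPKM in the same order. FGFR4 was higher in the line with almost no FGF19 mRNA, whereas KLB was slightly lower there. The ratio of FGFR4 to KLB was 2.69 and 2.67 in Huh-7 and 5.97 and 6.44 in PLC/PRF/5 cells. Between the control libraries, the FGFR4 difference was 0.86 and that of KLB was -0.25 on the log2(FPKM + 1) scale. Both genes differed little within a line, with differences of 0.09 and 0.10 on overexpression and 0.07 and -0.04 on knockdown. FGFR4 (ENSG00000160867) lies at chr5:176513906-176525145 and KLB (ENSG00000134962) at chr4:39408550-39453153 of GRCh37, both on the plus strand.

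FGFR4 was also the main FGF receptor by FPKM. It held 70.1% and 65.4% of the summed FPKM of FGFR1 to FGFR4 in Huh-7 empty vector and overexpressing cells, and 75.5% and 77.0% in PLC/PRF/5 control and knockdown cells. The next was FGFR3, at 12.7, 17.6, 17.7 and 17.2 FPKM in the same order. FGFR1 was at 1.68, 1.59, 2.41 and 2.25 FPKM, and FGFR2 was listed at 0 in all 4 libraries. FGFRL1, a receptor without a kinase domain, was at 18.3, 18.9, 10.6 and 9.84 FPKM. No other FGF ligand of the list, which also held KL and LCTL, reached 1 FPKM. FGF21, the other endocrine ligand that uses KLB, was listed at 0 in both Huh-7 libraries and was at 0.269 and 0.221 FPKM in PLC/PRF/5 cells (named after its values were seen). FGF23 was listed at 0 in all 4 libraries. Of the 17 genes of this list 3 reached 1 FPKM, namely FGFR1, FGFR3 and FGFRL1. On overexpression and on knockdown 0 of these 3 were past 1.5-fold (medians 0.04 and -0.07), and between the control libraries FGFRL1 was, as lower in PLC/PRF/5 (median 0.35).

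Among the nuclear receptors, NR1H4 divided the lines. The FXR mRNA was at 11.7 FPKM in Huh-7 empty vector and 12.0 in overexpressing cells, but at 0.0310 in PLC/PRF/5 control and 0.0766 in knockdown cells. The difference between the control libraries was -3.62 on the log2(FPKM + 1) scale, and 0.631% of all genes compared had a lower one. With a pseudocount of 0.1 this difference was -6.49, because the PLC/PRF/5 values are close to 0. NR1H4 (ENSG00000012504) lies at chr12:100867486-100958192 of GRCh37, on the plus strand. On overexpression its difference was 0.03.

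NR0B2, the corepressor that FXR induces, was expressed in all 4 libraries, including those with NR1H4 below 0.1 FPKM. It was at 4.85 FPKM in Huh-7 empty vector, 4.95 in overexpressing, 6.73 in PLC/PRF/5 control and 4.11 in knockdown cells. The PLC/PRF/5 control library was the highest and the knockdown library the lowest. The difference on knockdown was -0.60 on the log2(FPKM + 1) scale, a ratio of 0.610, and 2.88% of all genes compared had a lower one. On overexpression the difference was 0.03. NR0B2 (ENSG00000131910) lies at chr1:27237980-27240466 of GRCh37, on the minus strand.

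NR5A2, which activates CYP7A1 and CYP8B1 and is the main partner that NR0B2 represses, was at 8.56 FPKM in Huh-7 empty vector, 7.64 in overexpressing, 4.67 in PLC/PRF/5 control and 4.29 in knockdown cells. It was lower in both treated libraries than in their controls, by -0.15 and -0.10 on the log2(FPKM + 1) scale, and both lay within the central 95% of all genes. Between the control libraries it was lower in PLC/PRF/5 by -0.75. NR5A2 (ENSG00000116833) lies at chr1:199996742-200146548 of GRCh37, on the plus strand.

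The enzymes that this axis controls were close to 0 in both lines. CYP7A1 was at 0.0673 FPKM in Huh-7 empty vector cells and was listed at 0 in the other 3 libraries. CYP8B1 was at 0.0116 FPKM in Huh-7 empty vector, 0.0277 in overexpressing, 0.0269 in PLC/PRF/5 control and 0.00942 in knockdown cells. None of these 8 values came near 1 FPKM, and no difference can be read from them. CYP7A1 (ENSG00000167910) lies at chr8:59402737-59412722 and CYP8B1 (ENSG00000180432) at chr3:42897497-42917390 of GRCh37, both on the minus strand. Exons of CYP8B1 overlap ACKR2 on the opposite strand, which was below 1 FPKM in all 4 libraries. Exons of the other 7 genes overlap no other gene in GENCODE 44 on this build.

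Few of the 8 genes differed by 1.5-fold on the log2(FPKM + 1) scale after a change of CCDC137. On overexpression 6 of the 8 genes reached 1 FPKM in either library. Of these, 0 were past 1.5-fold, beside 3.22% of all 12255 genes higher and 2.99% lower. Differences ran from -0.15 to 0.21 with a median of 0.06, beside 0.01 for all genes, and 5 were higher and 1 was lower. On knockdown 4 genes reached 1 FPKM in either library. NR0B2 alone was past 1.5-fold, as lower, beside 3.08% of all 12300 genes higher and 2.95% lower. The median of the 4 was -0.07, beside -0.01 for all genes, and 1 was higher and 3 were lower. None of the members was past 2-fold on either treatment, beside 1.07% and 1.09% of genes higher and lower on overexpression and 1.20% and 1.10% on knockdown. NR0B2 lay just past the threshold, and its difference ran from -0.70 to -0.59 over the alternative settings.

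Between the control libraries of the lines, 4 of the 6 genes at 1 FPKM or more were past 1.5-fold. FGFR4 was higher in PLC/PRF/5, beside 26.3% of all 13304 genes higher. FGF19, NR1H4 and NR5A2 were lower, beside 24.1% of genes lower. FGF19 and NR1H4 were also past 2-fold, as lower, where 14.6% of all genes were higher and 13.6% were lower. The median of the 6 was -0.50, beside 0.04 for all genes. KLB, at -0.25, and NR0B2, at 0.40, stayed within 1.5-fold. The FGF19 difference was -1.81 with a pseudocount of 1 and -4.71 with 0.1, since the gene was listed at 0 in PLC/PRF/5 control cells, and no fold is given.

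**Figure D2:**
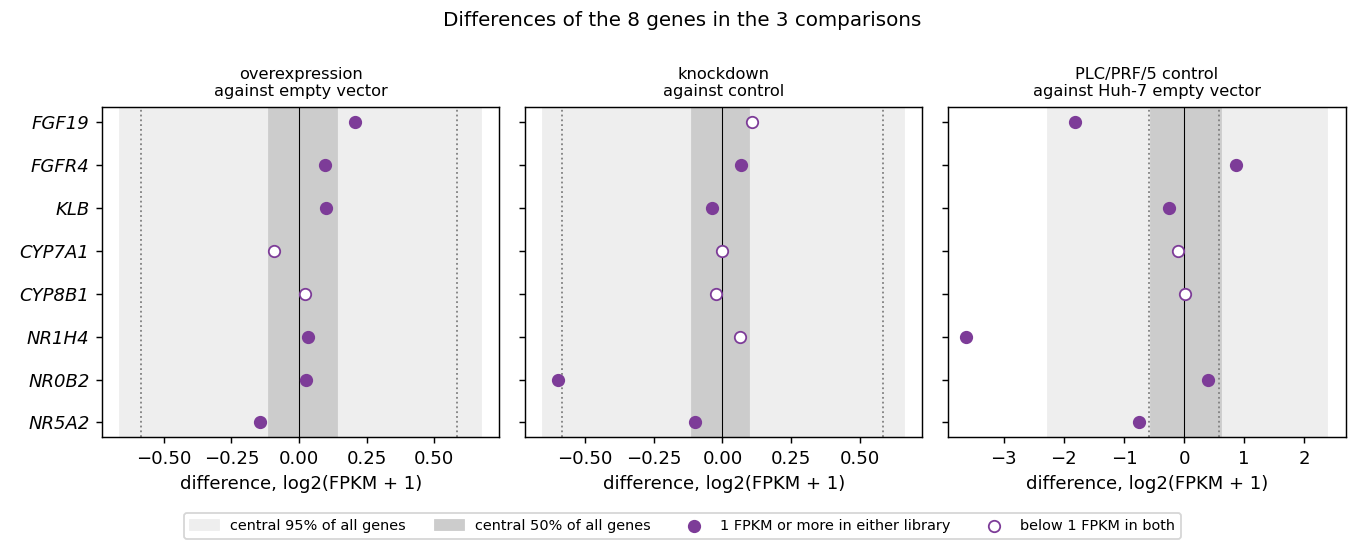
Difference of each of the 8 genes on the log2(FPKM + 1) scale in the 3 comparisons, with the central 95% and 50% of all genes in grey and dotted lines at 1.5-fold. Open circles mark genes below 1 FPKM in both libraries. NR0B2 on knockdown (-0.60) lies just past the line, and NR1H4 between the lines (-3.62) lies outside the grey band. The panels have unlike scales.

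The order of levels was alike within a line. In Huh-7 it ran from FGFR4 through KLB, NR1H4, NR5A2 and NR0B2 to FGF19 in both libraries. In PLC/PRF/5 cells FGFR4 and KLB again came first, followed by NR0B2 (6.73 FPKM) and NR5A2 (4.67) in control and by NR5A2 (4.29) and NR0B2 (4.11) in knockdown cells. Neighbours in this order cannot be separated without replicates. Of 13856 other genes that reached 1 FPKM in some library, those with the profile most like that of FGF19 over the 4 libraries were PAG1, CMTM6, G2E3, MTARC1 and TNFAIP8L3. Likeness was the Euclidean distance of mean-centred log2(FPKM + 1) values, from 0.0310 for PAG1 to 0.0683 for TNFAIP8L3. PAG1 had levels of 3.58 and 4.21 FPKM in Huh-7, against 0.288 and 0.364 in PLC/PRF/5 cells. MTARC1 and TNFAIP8L3 were also below 1 FPKM in both PLC/PRF/5 libraries, but CMTM6 and G2E3 were expressed there. CMTM6 was at 57.8 and 66.4 FPKM in Huh-7 and at 16.3 and 17.0 in PLC/PRF/5 cells. G2E3 was at 2.41 and 2.71 FPKM in PLC/PRF/5 cells. The likeness rests on the pseudocount of 1, with which the FGF19 difference between the control libraries was -1.81, against -4.71 with 0.1. The nearest of the other members was NR5A2, at a distance of 1.17, and that of NR1H4 was 1.75, as its difference between the lines was the larger.

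The other enzymes of bile acid synthesis and conjugation differed between the lines in both directions. Of 16 listed, 12 reached 1 FPKM in either control library, and all 12 were past 1.5-fold, with 3 higher and 9 lower in PLC/PRF/5 cells (median -1.10, beside 0.04 for all genes). Of all genes compared, 26.3% were higher and 24.1% lower. CYP27A1, which opens the alternative route of synthesis, was at 19.0 and 16.8 FPKM in Huh-7 empty vector and overexpressing cells and at 2.01 and 3.02 in PLC/PRF/5 control and knockdown cells. CYP39A1, an oxysterol hydroxylase, was at 3.22 and 3.06, and at 0.105 and 0.0835. The 3 that were higher in PLC/PRF/5 cells act in activation and conjugation. BAAT, which joins bile acids to glycine and taurine, was at 0.341 and 0.224 FPKM in Huh-7 and at 4.15 and 3.69 in PLC/PRF/5 cells, SLC27A2 was at 0.232 and 0.178, and at 2.07 and 2.35, and SLC27A5 was at 0.0739 and 0.0800, and at 1.19 and 1.13. On overexpression 0 of 9 enzymes were past 1.5-fold (median -0.06). On knockdown 1 of 11 was, as higher (median -0.04), namely AKR1C4, with 0.443 FPKM in control and 1.43 in knockdown cells.

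Transporters of bile acids and sterols gave a mixed picture beside NR1H4. Several of them, such as ABCB11, SLC51A, SLC51B and ABCB4, are known targets of FXR. ABCB11, the bile salt export pump, was at 0.422 and 0.403 FPKM in Huh-7 and was listed at 0 in both PLC/PRF/5 libraries. ABCB4, which exports phospholipid into bile, was at 1.25 and 1.64 FPKM in Huh-7, was listed at 0 in PLC/PRF/5 control and was at 0.00624 in knockdown cells. SLC51B, a subunit of the basolateral bile acid exporter, went the other way, at 9.81 and 11.7 FPKM in Huh-7 and 47.8 and 57.8 in PLC/PRF/5 cells. Its partner SLC51A was between 0.0740 and 0.109 FPKM in all 4 libraries. ABCC2, a canalicular exporter of conjugates, was at 15.6 and 15.6, and at 55.4 and 49.9 FPKM. ABCC4, a basolateral exporter, was at 5.28 and 5.54, and at 15.5 and 15.5, and ABCG8, a sterol exporter subunit, was at 2.24 and 2.48, and at 0.0153 and 0.00474. In the comparison of lines, 3 of 8 transporters were past 1.5-fold as higher and 3 as lower in PLC/PRF/5 cells (median 0.38, and -0.07 over all 14 with no minimum). The shares of all genes were 26.3% and 24.1%. On overexpression 0 of 10 were past 1.5-fold (median 0.12, and 0.07 over all 14 with no minimum). ABCG5 and SLCO1B3 reached 1 FPKM in the overexpression library alone, and ABCB11, SLC10A1 and SLCO1B1, below the minimum, were lower in it. On knockdown 0 of 6 were past 1.5-fold (median 0.03). The uptake carriers SLC10A1 and SLCO1B1 were at most 0.0501 FPKM in any library. ABCB11, ABCB4, ABCG5, SLCO1B3, SLC51A, SLC10A1, SLCO1B1 and SLC27A5 were named after their values were seen.

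**Figure D3:**
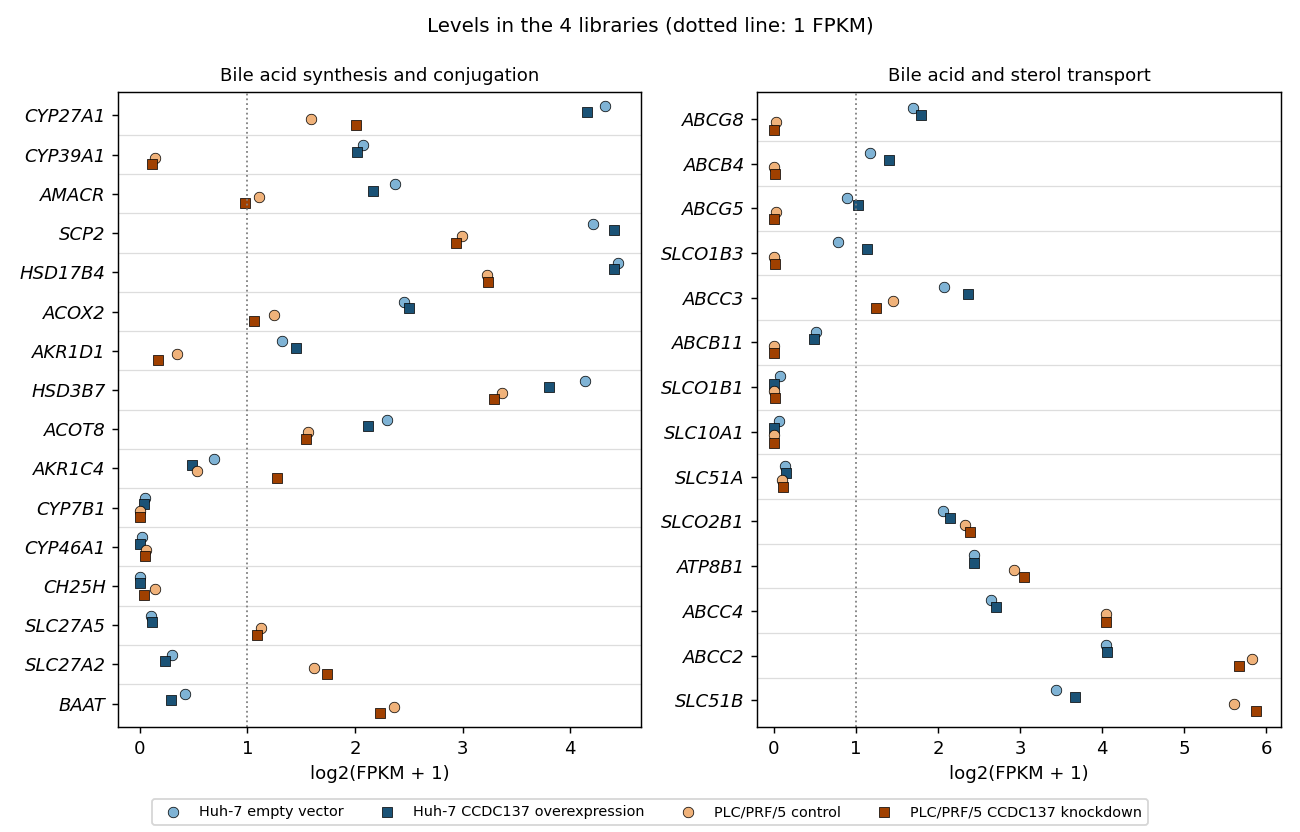
Levels of 16 synthesis and conjugation enzymes (left) and 14 transporters (right) as log2(FPKM + 1), with 1 point per library, the dotted line at 1 FPKM and genes ordered by the difference between the control libraries. CYP27A1 and ABCG8 are higher in Huh-7, and BAAT and SLC51B are higher in PLC/PRF/5 cells.

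Regulators that act on CYP7A1 and CYP8B1 beside FXR were mostly expressed in both lines. Of the regulators compared between lines, 13 of 22 were past 1.5-fold, 7 higher and 6 lower in PLC/PRF/5 cells (median 0.07, and -0.03 over all 26 with no minimum). Of all genes compared, 26.3% were higher and 24.1% lower, so these counts lay near the shares of all genes. HNF4A, an activator of both enzymes, was at 12.1 and 17.3 FPKM in Huh-7 and at 9.05 and 11.6 in PLC/PRF/5 cells (named after its values were seen). RXRA, the partner of FXR on DNA, was at 5.36 and 6.23 FPKM, and at 1.58 and 1.61 (also named after its values were seen). NR2F1, an orphan receptor that binds direct repeats, was at 8.004 and 9.68 FPKM in Huh-7 and at 0.213 and 0.0909 in PLC/PRF/5 cells. ONECUT1, a liver transcription factor, was at 3.07 and 3.41, and at 11.2 and 12.4. On overexpression 2 of 21 were past 1.5-fold, both higher (median 0.08). FOXA3, a liver forkhead factor, had 4.27 FPKM with the empty vector and 13.3 with overexpression, and 18.4 and 16.3 in PLC/PRF/5 control and knockdown cells. PPARA, a fatty acid receptor, was at 0.780 and 1.89 on overexpression and at 1.66 and 0.591 on knockdown, where it was the only one of 21 past 1.5-fold (median -0.01). Of the other receptors for bile acids in the list, GPBAR1 was at most at 0.0408, NR1I2 at 0.0804 and VDR at 0.113 FPKM in any library. S1PR2, a receptor for conjugated bile acids, was at 3.41 and 3.24 FPKM in Huh-7 and at 1.87 and 2.22 in PLC/PRF/5 cells, and was past 1.5-fold as lower between the control libraries.

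Genes of FGF receptor signaling and of ERK feedback were read as neighbors of FGFR4 in the pathway. On overexpression 1 of 19 was past 1.5-fold, as higher (median 0.06), namely FRS2, the docking protein of FGF receptors, with 3.08 FPKM for the empty vector and 5.56 for overexpression. On knockdown 0 of 19 were past 1.5-fold (median -0.09). From line to line, 10 of 20 were higher past 1.5-fold and 2 were lower in PLC/PRF/5 cells (median 0.55), beside 26.3% and 24.1% of all genes. ETV4, a transcription factor induced by ERK, was at 6.30 and 7.25 FPKM in Huh-7 and at 57.6 and 53.5 in PLC/PRF/5 cells. The ERK phosphatase DUSP5 was at 8.62 and 6.23, and at 70.3 and 54.3, and DUSP4 at 2.38 and 2.10, and at 21.9 and 24.4. EGR1, an immediate early gene, was at 1.17 and 0.959, and at 6.02 and 3.75. These genes were higher in the control library in which FGF19 was listed at 0. As background, they respond to many receptors besides FGFR4. DUSP6, another ERK phosphatase, was at 11.8 and 15.1 FPKM, and at 13.9 and 15.1 (named after its values were seen).

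**Figure D4:**
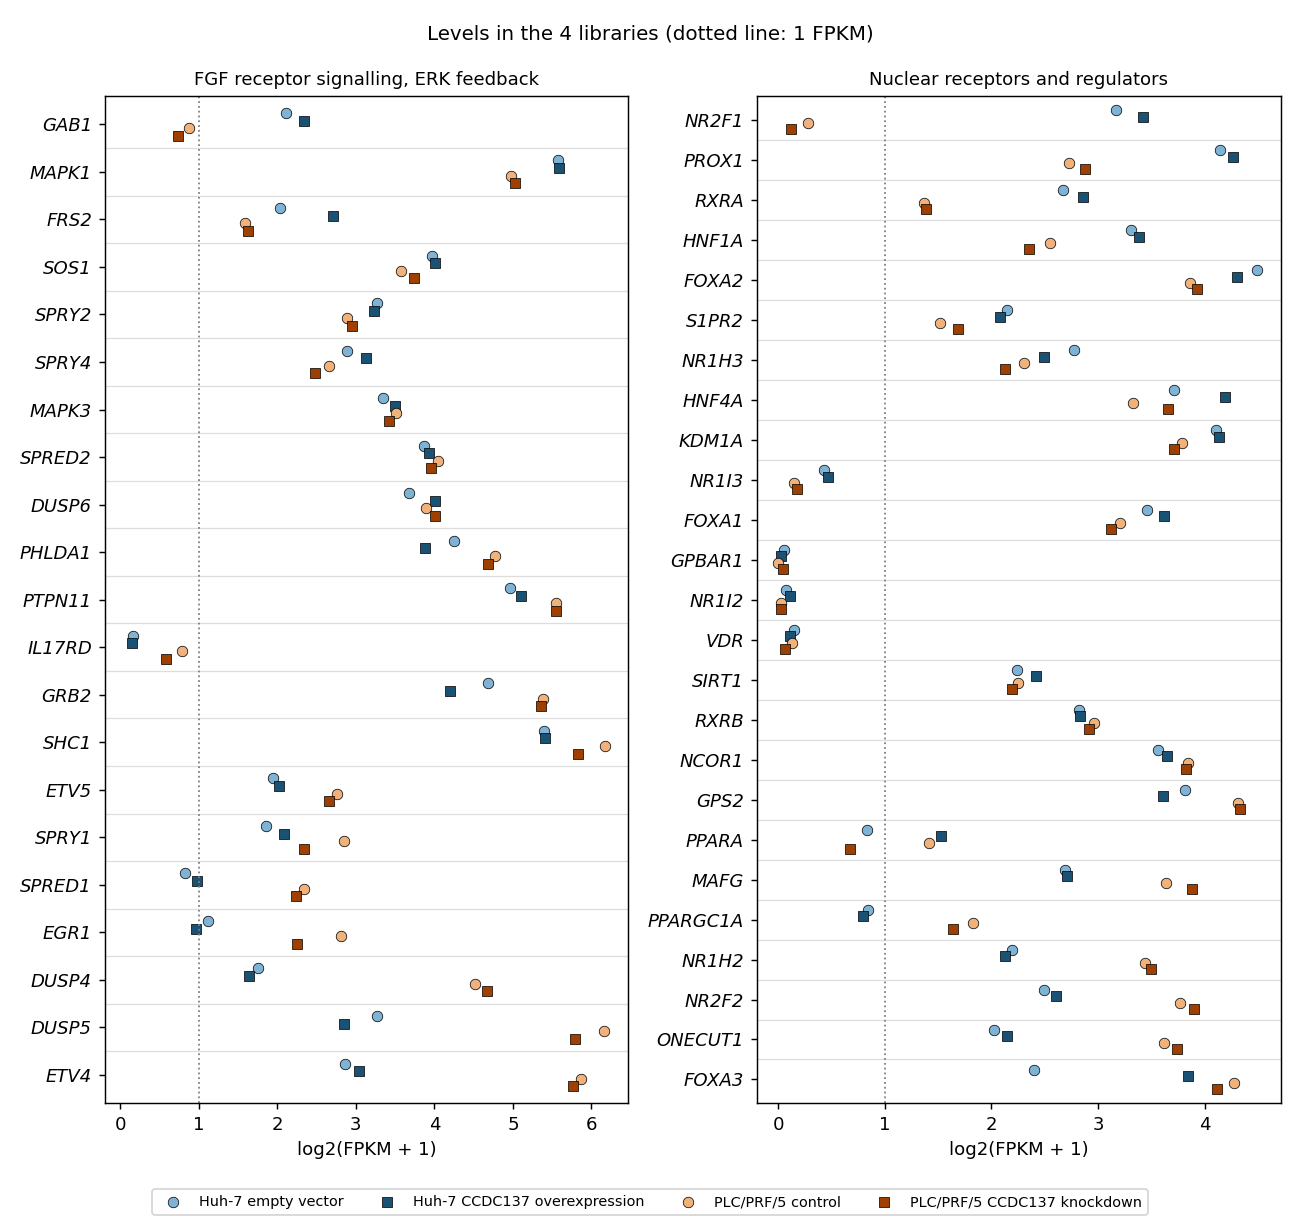
Levels of 21 genes of FGF receptor signaling and ERK feedback (left) and nuclear receptors and regulators (right) as log2(FPKM + 1), with 1 point per library, the dotted line at 1 FPKM and genes ordered by the difference between the control libraries. ETV4, DUSP5 and DUSP4 are higher in PLC/PRF/5 cells and NR2F1 is higher in Huh-7, and FOXA3 differs between the Huh-7 libraries.

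The genes beside FGF19 on chromosome 11 were read next. In GENCODE the order there is MYEOV, CCND1, LTO1, FGF19, FGF4, FGF3, ANO1, FADD, PPFIA1 and CTTN. CCND1, the cyclin D1 gene, was at 49.6 and 62.8 FPKM in Huh-7 and at 68.5 and 65.9 in PLC/PRF/5 cells. FADD, a death receptor adaptor, was at 36.0 and 30.7, and at 17.6 and 18.3, and CTTN, the actin regulator cortactin, at 41.4 and 39.1, and at 24.8 and 24.5. MYEOV was at 0.0368 and 0.0276, and at 1.70 and 1.28 FPKM. FGF4 and FGF3 were listed at 0 in all 4 libraries. Of 9 found, 6 reached 1 FPKM in either control library, with 1 higher and 2 lower past 1.5-fold (median -0.23), beside 26.3% and 24.1% of all genes. On overexpression 0 of 5 and on knockdown 0 of 6 were past 1.5-fold (medians -0.08 and -0.07).

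Since FGF19 is made by the ileum in healthy tissue, ileal markers were read beside it. The 8 markers summed to 43.96 and 41.4 FPKM in Huh-7 and to 26.9 and 29.0 in PLC/PRF/5 control and knockdown cells. Most of each sum was VIL1, at 33.5 and 33.8 FPKM in Huh-7 and at 21.8 and 23.1 in PLC/PRF/5 cells. SLC10A2, the ileal bile acid uptake carrier, and CDX1 were listed at 0 in all 4 libraries. FABP6, the ileal bile acid binding protein, was at 0.0233 FPKM in Huh-7 empty vector, was listed at 0 in overexpressing cells and was at 0.630 and 0.759 in PLC/PRF/5 cells. CDX2, an intestinal homeobox factor, was at 2.70 and 1.81 in Huh-7 and at 0.198 and 0.2498 in PLC/PRF/5 cells, and CDH17 was at 7.78 and 5.73, and at 1.38 and 1.53. MUC2, an intestinal mucin, went the other way and had the largest difference of the list, listed at 0 in both Huh-7 libraries and at 2.69 and 3.17 FPKM in PLC/PRF/5 cells. Across the control libraries 1 of 4 markers was higher and 3 were lower past 1.5-fold in PLC/PRF/5 cells (median -1.11, and 0 over all 8 with no minimum). The shares of all genes were 26.3% and 24.1%. On overexpression and on knockdown 0 of 3 were past 1.5-fold (medians -0.38 and 0.09, and 0 and 0.07 over all 8 with no minimum). The part of these genes in the FGF19 result was not tested.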

How the data were processed

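RNA from 4 libraries of 2 HCC lines, 1 per group, was selected with oligo(dT) and sequenced with paired ends of 150 bases. The authors deposited 1 table per line with FPKM per gene, made per the processing notes of the submitters with StringTie 1.3.4d, HISAT2 2.0.4 and cutadapt. Build, annotation, strand setting and read totals: not given in the sources used here. FPKM is scaled within each library, so levels set across the lines rest on separately normalized tables. The tables also hold the authors' own fold changes, p-values and q-values, which were not used. The number of per-sample columns of no listed sample was 0.

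A deposited FPKM of 0.0001 was read as 0. Differences were log2((FPKM + 1)/(FPKM + 1)), over genes with at least 1 FPKM in either library, which understates changes of low genes. Genes past 1.5-fold or 2-fold on this scale were counted, as a description of these libraries and with no test. Counts for a list are to be read beside the shares of all genes past 1.5-fold. These were 3.22% higher and 2.99% lower on overexpression, 3.08% and 2.95% on knockdown, and 26.3% and 24.1% between the control libraries. Python 3.11.15, numpy 2.4.6 and pandas 2.3.3 were used, and the counting was checked on simulated data. Alternatives were a pseudocount of 0.1, no minimum, a minimum of 2 FPKM, rescaling each library to a common sum (as for TPM), and centring on the median of all genes. The rescaling kept the pseudocount at 1 on a common sum above the FPKM sum of any library. Low values pointed to a depth of 0.862 relative to empty vector on overexpression and 1.17 relative to control on knockdown, shared by 3.39% and 3.97% of the genes below 0.1 FPKM, a weak estimate. Places are from GENCODE 44 on GRCh37, which may not be the authors' annotation.

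The 8 genes and the 10 other lists (FGF family, FGF receptor signaling, enzymes, transporters, regulators, chromosome 11 neighbors, and ileal, hepatocyte, bile duct, and fibroblast, endothelial and blood markers) were chosen with earlier results of these data known. Named genes were the 8 genes, CCDC137, up to 4 genes per list with the largest absolute difference in any of the 3 comparisons and the 5 genes nearest to FGF19. The values of 1 gene that this rule takes are not reported here. Others are said to be named after their values were seen, or are members past 1.5-fold, defining markers, or at or near 0.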

Additional observations from a re-analysis of the deposited data

How the results depend on the processing

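All 16 differences of members at 1 FPKM or more kept their sign under rescaling and under centring. The other alternatives could not change a sign, because a pseudocount keeps the order of 2 values and a minimum only selects genes. The members past 1.5-fold were the same genes under all 5 alternatives (0 on overexpression, NR0B2 on knockdown, and FGF19, FGFR4, NR1H4 and NR5A2 between the lines). With a pseudocount of 0.1, the genes past 1.5-fold numbered 1259 on overexpression (761 with a pseudocount of 1) and 1164 on knockdown (742). Rescaling each library to a common sum, as for TPM, gave line differences of -3.30 for FGF19 and -5.25 for NR1H4. The FPKM sums of the control libraries were already close, at 283507 for Huh-7 empty vector and 284984 for PLC/PRF/5 control. The common sum was larger than both while the pseudocount stayed at 1, so the pseudocount weighed less. The larger FGF19 and NR1H4 differences therefore do not show an effect of unequal library sums. List medians crossed 0 for transporters (-0.07) and regulators (-0.03) between the lines with no minimum, where those of ileal markers were 0 on overexpression and between the lines, and with a minimum of 2 FPKM for bile duct markers on knockdown (-0.06) and for fibroblast, endothelial and blood markers between the lines (-0.81). The cause was not tested. No paired analysis was possible because each group has 1 library and the labels give no replicate numbers, and no replicate could be left out. Read depth is unknown, so values near 0 set no limit on expression.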

Other observations

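Markers of other cell types differed between the lines. Of 6 bile duct markers, 5 reached 1 FPKM in either control library, and of these 3 were higher and 2 lower past 1.5-fold in PLC/PRF/5 cells (median 2.23). The shares of all genes were 26.3% and 24.1%. KRT19, a keratin of bile duct cells, was at 0.409 and 0.157 FPKM in Huh-7 and at 13.0 and 14.4 in PLC/PRF/5 cells, whereas EPCAM was at 10.95 and 9.01, was listed at 0 in PLC/PRF/5 control and was at 0.175 in knockdown cells. CFTR, a chloride channel, was at 0.0929 and 0.0543, and at 4.14 and 2.41, and was the 1 of 5 bile duct markers past 1.5-fold on knockdown, as lower (median 0.11). On overexpression 0 of 3 were (median -0.26). SPP1 was at 1.39 and 0.844 FPKM in Huh-7 and at 11.3 and 9.56 in PLC/PRF/5 cells. Of 13 fibroblast, endothelial and blood markers, 4 reached 1 FPKM in either control library. Of these 4, 2 were higher and 2 lower past 1.5-fold in PLC/PRF/5 cells (median 0.37), beside the same shares of all genes. LUM, a matrix proteoglycan, was at 28.7 and 22.8 FPKM in Huh-7 and at 0.328 and 0.285 in PLC/PRF/5 cells. CD68, a lysosomal protein of macrophages, was at 8.45 and 4.60, and at 38.2 and 43.8, and was the 1 of 3 past 1.5-fold on overexpression, as lower (median -0.32). On knockdown 0 of 2 were (median 0.28). PECAM1 was at 2.28 and 2.66 FPKM in Huh-7 and at 0.876 and 0.982 in PLC/PRF/5 cells. PTPRC, the pan-leukocyte marker, and HBB were listed at 0 in all 4 libraries. HBA1 was listed at 0 in both Huh-7 libraries but was at 1.94 and 2.77 FPKM in PLC/PRF/5 control and knockdown cells.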
